A study of Mus musculus with 5 samples.

Results

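Neutrophil genes were examined in bulk RNA sequencing of the tumor-bearing hemisphere, with and without ultrasound-mediated blood-brain barrier opening (UMBO). The 9 genes, S100a8, S100a9, Ly6g, Mmp8, Cxcr2, Camp, Ngp, Retnlg and Csf3r, were listed by name, with earlier results of these data known. All 9 were found by symbol among the 55573 genes of the count tables. Female C57BL/6 mice, 7 to 8 weeks old, had received GL261 glioma cells carrying luciferase and mKate2 in the right caudate nucleus-putamen, and this was shared by both groups. The UMBO group (2 libraries) was sonicated after intravenous microbubbles in sessions on days 21 and 24, and the vehicle group (3 libraries) received a dilution buffer. The methods describe warm saline before anesthesia for all mice in each protocol, and whether vehicle mice were given microbubbles is not given in the sources used here. The right hemisphere was taken 24 h after the last session, and no library beyond these 5 was analysed here. The labels number the libraries within a group and do not name the mice. GL261 is 1 transplanted mouse line, so no other tumor was sampled. Killing was by cervical dislocation, and no perfusion is described for these mice.

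Neutrophils are short-lived granulocytes made in the bone marrow under the growth factor G-CSF, whose receptor is encoded by Csf3r. They leave the marrow and enter tissue along CXC chemokines read by the receptor Cxcr2, and kill microbes with proteins stored in granules. Their cytosol is filled with S100a8 and S100a9, calcium-binding proteins that pair to form calprotectin and act as danger signals outside the cell. Healthy brain tissue holds very few neutrophils, while gliomas recruit them in varying numbers. In mice the surface protein Ly6g is the usual marker of the lineage.

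The stretches before the transcription start are shown for the alarmin pair S100a8 and S100a9, for Mmp8 and for Csf3r, the members on which the results turn. Each covers 250 bases of GRCm38.p6 from RefSeq, written 5′ to 3′ on the gene's own strand and ending just before the RefSeq start. For S100a8 and Csf3r that start lies inside the gene position given below from GENCODE. These stretches therefore run past the GENCODE start. Capitals mark TATAAA (coding strand), GGAAGT (the ETS core used by the myeloid factor PU.1, either strand) and TTGCNNAA (a spaced C/EBP site, either strand). No marked motif overlaps another in these 4 stretches.
S100a8, chr3:90668821-90669070, forward strand: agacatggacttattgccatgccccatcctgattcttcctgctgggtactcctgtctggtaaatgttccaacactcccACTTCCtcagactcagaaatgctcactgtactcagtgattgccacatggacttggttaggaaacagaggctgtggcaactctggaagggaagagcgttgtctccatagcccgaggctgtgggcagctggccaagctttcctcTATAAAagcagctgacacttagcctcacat
S100a9, chr3:90695722-90695971, reverse strand: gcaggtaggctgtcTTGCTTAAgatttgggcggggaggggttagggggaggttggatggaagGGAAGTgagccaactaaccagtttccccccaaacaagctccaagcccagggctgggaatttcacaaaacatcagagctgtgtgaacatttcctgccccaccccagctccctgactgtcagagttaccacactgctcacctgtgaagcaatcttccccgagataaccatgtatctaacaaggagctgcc
Mmp8, chr9:7558179-7558428, forward strand: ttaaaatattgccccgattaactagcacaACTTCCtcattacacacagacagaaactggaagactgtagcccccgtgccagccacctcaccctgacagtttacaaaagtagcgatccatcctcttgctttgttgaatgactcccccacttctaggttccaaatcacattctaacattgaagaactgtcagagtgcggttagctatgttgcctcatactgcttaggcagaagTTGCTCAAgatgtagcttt
Csf3r, chr4:126024409-126024658, forward strand: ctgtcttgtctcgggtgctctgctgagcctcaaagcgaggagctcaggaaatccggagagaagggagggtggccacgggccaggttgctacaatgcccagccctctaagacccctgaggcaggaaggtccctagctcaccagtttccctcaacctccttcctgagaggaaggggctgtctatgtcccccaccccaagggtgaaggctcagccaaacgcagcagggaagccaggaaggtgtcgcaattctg

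TATAAA occurred in the S100a8 stretch and was held by 7.59% of the 32851 promoter windows of the same length. GGAAGT occurred once each before S100a8, S100a9 and Mmp8, and in 19.7% of all windows. TTGCNNAA occurred once each before S100a9 and Mmp8, and in 9.56% of all windows. The Csf3r stretch held none of these letters in this window. A match is only a description of the sequence.

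The total count lay between 59736771 and 86164159 per library, and values are given as raw counts and as CPM, the counts scaled to a common library size with TMM factors. UMBO replicate 2 was the library with the lowest total count. It stood apart from the other libraries on the first principal component, which held 78.7% of the variance, at 133.7 against -68.4 to 17.0. In bulk tissue, fewer cells of a type and less RNA per cell cannot be told apart.

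The alarmin genes were far higher in UMBO replicate 2 than in any other library, and UMBO replicate 1 lay within the vehicle range. S100a8 (chromosome 3 of GRCm38, 90668978 to 90670035, forward strand) had 14, 17 and 7 counts in vehicle replicates 1 to 3, 19 in UMBO replicate 1 but 105 in UMBO replicate 2. The groups overlapped, since vehicle replicate 2 (0.252 CPM) lay above UMBO replicate 1 (0.222 CPM). The mean was 0.174 ± 0.0855 CPM (SD, n = 3) with vehicle and 0.913 ± 0.977 CPM (SD, n = 2) with UMBO. Against the pooled vehicle libraries the S100a8 level was 1.33-fold in UMBO replicate 1 (95% exact interval 0.723 to 2.36) but 9.57-fold in UMBO replicate 2 (6.55 to 14.3). These intervals cover counting error only, not the spread between libraries. S100a9 (chromosome 3, 90692632 to 90695721, reverse strand), which encodes the partner of S100a8, had 20, 34 and 18 counts with vehicle, 21 in UMBO replicate 1 but 142 in UMBO replicate 2. The mean was 0.328 ± 0.155 CPM (SD, n = 3) against 1.21 ± 1.36 CPM (SD, n = 2). Its level in UMBO replicate 1 was 0.246 CPM, between vehicle replicates 3 and 1, while UMBO replicate 2 stood at 2.17 CPM. The ratio to pooled vehicle was 0.774 (0.452 to 1.27) in UMBO replicate 1 and 6.83 (5.11 to 9.2) in UMBO replicate 2. The S100a8 to S100a9 ratio of CPM varied less than either gene, between 0.389 and 0.905 over the 5 libraries.

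**Figure D1:**
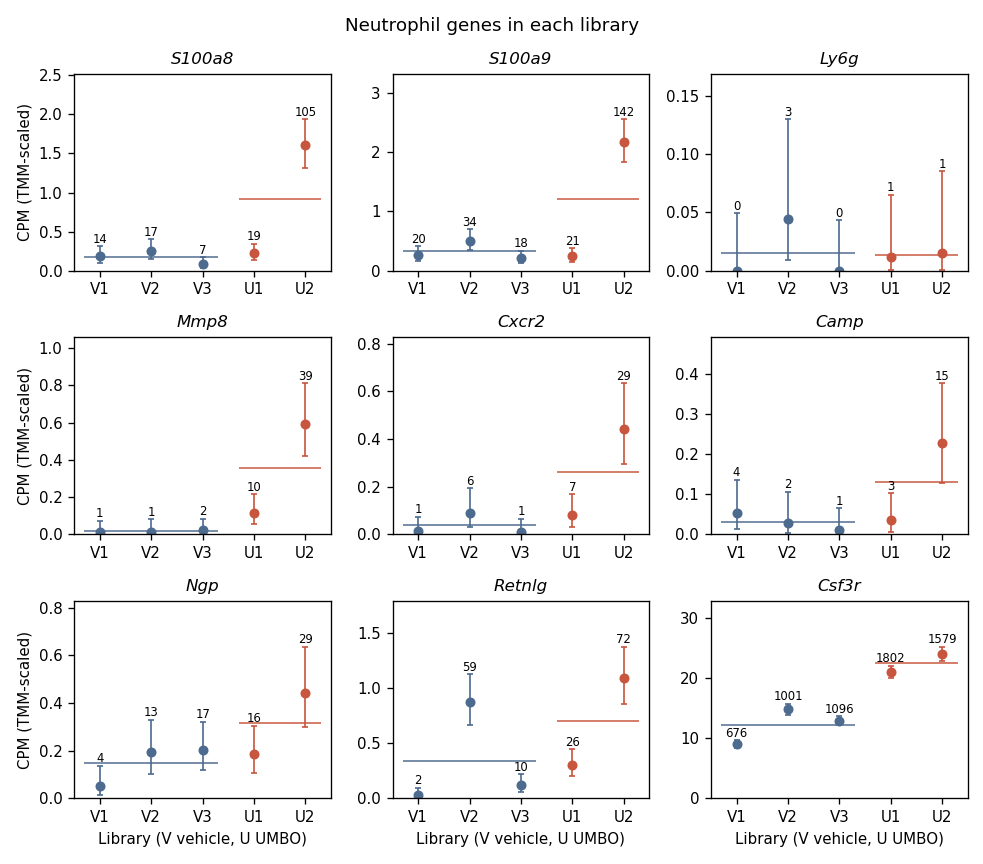
CPM of each neutrophil gene (y axes from 0, a scale per gene) in vehicle libraries V1 to V3 and UMBO libraries U1 and U2. Points carry the raw count and the 95% Poisson interval of counting, and lines are group means; UMBO replicate 2 is highest for every gene but Ly6g, and Mmp8 and Csf3r do not overlap between the groups.

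Among the granule genes of the 9 members, Mmp8 was the only one whose groups did not overlap. Mmp8 (chromosome 9, 7558456 to 7568485, forward strand), the neutrophil collagenase stored in specific granules, had 1, 1 and 2 counts with vehicle, 10 in UMBO replicate 1 but 39 in UMBO replicate 2. In CPM these were 0.0134, 0.0148 and 0.0236 against 0.117 and 0.595. The ratio to pooled vehicle rested on 4 vehicle counts and was 6.63 (1.91 to 29.0) in UMBO replicate 1 and 33.8 (12.2 to 130.0) in UMBO replicate 2. Camp (chromosome 9, 109847379 to 109849617, reverse strand) encodes the antimicrobial cathelicidin of mice. It had 4, 2 and 1 counts with vehicle, 3 in UMBO replicate 1 but 15 in UMBO replicate 2. UMBO replicate 1 therefore lay inside the vehicle range for Camp, and UMBO replicate 2 was at 7.42 times pooled vehicle (2.85 to 21.5). Ngp (chromosome 9, 110419747 to 110423012, forward strand), a granule protein related to the cathelicidins, had 4, 13 and 17 counts with vehicle, 16 in UMBO replicate 1 but 29 in UMBO replicate 2. Its mean was 0.149 ± 0.0829 CPM (SD, n = 3) with vehicle and 0.315 ± 0.181 CPM (SD, n = 2) with UMBO, with overlapping groups.

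Retnlg varied widely among the vehicle libraries, and the groups overlapped. Retnlg (chromosome 16, 48872621 to 48874496, forward strand) encodes a resistin-like secreted protein made by neutrophils and their marrow precursors. It had 2, 59 and 10 counts with vehicle, 26 in UMBO replicate 1 but 72 in UMBO replicate 2. Vehicle replicate 2, at 0.875 CPM, lay above UMBO replicate 1 at 0.304 CPM and below UMBO replicate 2 at 1.10 CPM. The vehicle SD of 0.466 CPM exceeded the vehicle mean of 0.34 CPM. The ratio to pooled vehicle was 0.972 (0.595 to 1.54) in UMBO replicate 1 but 3.51 (2.5 to 4.95) in UMBO replicate 2.

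The receptors fell into a rare and an abundant one. Cxcr2 (chromosome 1, 74153989 to 74161246, forward strand), which guides neutrophils along CXC chemokines, had 1, 6 and 1 counts with vehicle, 7 in UMBO replicate 1 but 29 in UMBO replicate 2. In CPM, vehicle replicate 2 (0.089) was just above UMBO replicate 1 (0.0819), so the groups overlapped. Of the windows of 50 bases in Cxcr2 transcripts, 6.68% also occur in other genes. UMBO replicate 2 stood apart at 12.6 times pooled vehicle (5.6 to 31.8), and UMBO replicate 1 was at 2.32 times (0.717 to 7.33). Csf3r (chromosome 4, 126024550 to 126044440, forward strand) had 676, 1001 and 1096 counts with vehicle and 1802 and 1579 counts with UMBO. Of its transcript windows of 50 bases, 10.7% also occur in other genes, and the effect of this on its counts was not tested. Its level was 9.04, 14.8 and 12.9 CPM in the vehicle libraries and 21.1 and 24.1 CPM in the UMBO libraries. The groups did not overlap, with means of 12.3 ± 2.96 CPM (SD, n = 3) and 22.6 ± 2.14 CPM (SD, n = 2). Unlike for the rare members other than Ly6g, the ratio to pooled vehicle was close in the UMBO libraries, at 1.72 (1.62 to 1.83) and 1.97 (1.85 to 2.1). Ly6g (chromosome 15, 75155240 to 75159126, forward strand), the lineage marker, was near 0 in both groups. It had 0, 3 and 0 counts with vehicle and 1 and 1 with UMBO, and in a library with 0 counts up to 3 counts cannot be told from none. No difference in Ly6g between the groups was detectable at this depth, and the ratio of both UMBO libraries to pooled vehicle was 1.0, with an interval of 0.0837 to 8.74.

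Compared per exonic length, Csf3r was the highest of the 9 genes in each library, at 2.51 to 6.68 CPM per kilobase of exon. S100a9 was the next in 3 of the 5 libraries, and lay at 0.407 to 4.15 CPM per kilobase over all 5. In vehicle replicate 2, Retnlg (1.48 CPM per kilobase) lay above S100a9 (0.966), and in UMBO replicate 1 it lay above S100a9 as well (0.513 against 0.471). The Csf3r level per kilobase was 4.26 to 8.81 times that of S100a9 with vehicle, 12.4 times in UMBO replicate 1 and 1.61 times in UMBO replicate 2. In CPM, without division by length, Csf3r made up 88.1% to 95.1% of the summed level of the 9 genes with vehicle. This share was 94.6% in UMBO replicate 1 but 78.5% in UMBO replicate 2. Csf3r has 3609 exonic bases and S100a9 has 522, so the share in CPM also reflects exonic length. In mature neutrophils the alarmin transcripts are among the most abundant of all, and Csf3r is also transcribed by other myeloid cells, microglia included. Without Csf3r the summed level of the other 8 genes was 0.615, 2.00 and 0.662 CPM with vehicle, 1.20 CPM in UMBO replicate 1 but 6.60 CPM in UMBO replicate 2. UMBO replicate 1 lay between vehicle replicates 3 and 2 by this measure.

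**Figure D2:**
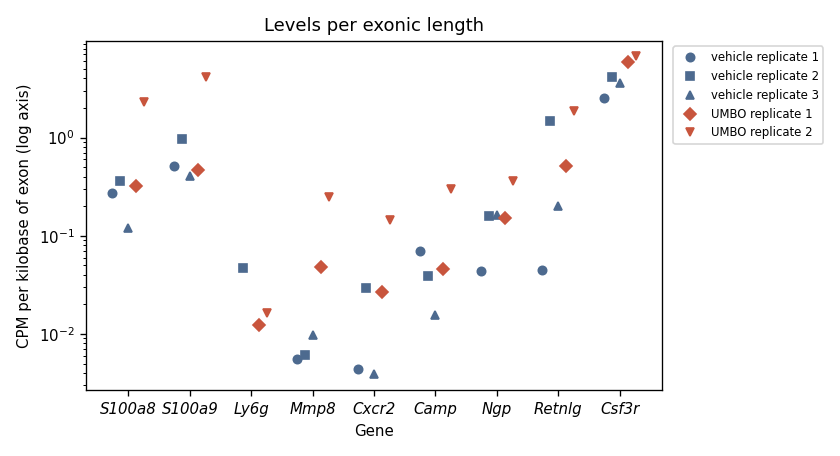
CPM per kilobase of exon (log axis) of the 9 neutrophil genes, 1 marker per library, with libraries at 0 left out (vehicle replicates 1 and 3 of Ly6g). Csf3r lies highest in each library, from 2.51 to 6.68, and UMBO replicate 2 lies well above the other libraries for S100a8, S100a9, Mmp8, Cxcr2 and Camp.

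Of the 9 genes, 5 had enough counts to be tested among 23592 genes with edgeR's quasi-likelihood test, and 0 of these 5 had an adjusted p under 0.05, against 0.0% of all genes tested. The untested genes were Ly6g, Mmp8, Cxcr2 and Camp. For S100a8 the log2 fold change was 2.38 ± 0.883 (standard error), at an unadjusted p of 0.0356 and an adjusted p of 0.497. Csf3r had the smallest error of the 5, its log2 fold change being 0.88 ± 0.255, at an unadjusted p of 0.0136 and an adjusted p of 0.497. The log2 fold change was 1.87 for S100a9 (standard error 0.891), 1.06 for Ngp (0.68) and 1.05 for Retnlg (1.25). The adjusted p from edgeR was 0.497, 0.498 and 0.652 for these genes. The 5 tested genes had a median log2 fold change of 1.06, beside 0.01 over all genes tested. An unadjusted p under 0.05 with a higher level in UMBO was reached by 2 of the 5, S100a8 and Csf3r, against 5.3% of all genes tested, which were 1251 genes. The UMBO values all exceeded the vehicle values for 1 of the 5, Csf3r, against 11.5% of the genes tested. Over all 9 genes this held for 2, Csf3r and Mmp8, against 10.4% of the 40435 genes with a count. The highest CPM was in UMBO replicate 2 for 8 of the 9 genes, against 37.6% of genes with a count. With no filter on low counts edgeR gave the untested genes a log2 fold change of 4.16 for Mmp8, 2.74 for Cxcr2, 1.95 for Camp and -0.05 for Ly6g, with adjusted p of 0.307, 0.375, 0.52 and 0.994. The DESeq2 Wald test gave an adjusted p of 0.112 for Mmp8, 0.281 for Csf3r and 0.293 for S100a8, and 0 of the 6 members with an adjusted p passed. Over all genes edgeR called 0, with 1738 at an unadjusted p under 0.05, and DESeq2 called 40.

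The difference in the alarmins depended on UMBO replicate 2, and that in Csf3r did so less. Without it the log2 fold change was 0.37 for S100a8, -0.40 for S100a9, 0.32 for Ngp and -0.14 for Retnlg, while Csf3r stood at 0.78. UMBO replicate 1 was then the lone UMBO library, so these values are given as effect sizes only. With UMBO replicate 2 as the lone UMBO library, assumed to vary like the vehicle libraries, 2 of the 5 members tested above had an adjusted p under 0.05 in edgeR. These were S100a8 (log2 fold change 3.18, adjusted p 0.039) and S100a9 (2.70, 0.039). Mmp8, Cxcr2 and Camp passed the filter on low counts in that fit only through their counts in UMBO replicate 2, the library where they were high. Their log2 fold changes there, 4.92, 3.53 and 2.79, are therefore given as a description. In that fit 10.1% of all genes tested were called higher, and the only UMBO library in it was the one that stood apart. Vehicle replicate 2 weighed on Retnlg, whose log2 fold change was 3.25 without it. With the replicate number as a block in edgeR, which the labels do not describe as a pairing, Csf3r had a log2 fold change of 0.96. Its adjusted p was 0.0124, the only member to pass, and 6.05% of genes were called higher. Vehicle replicate 3 had no UMBO library of its number, so this contrast rested on replicates 1 and 2 of each group.

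**Figure D3:**
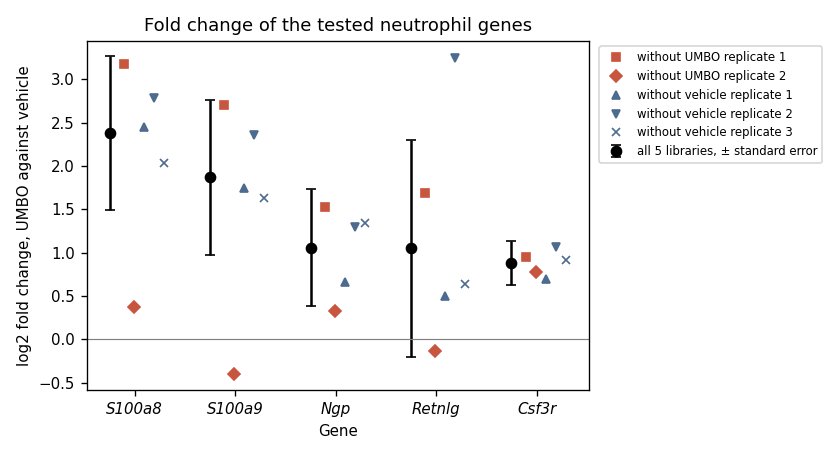
Log2 fold change of UMBO against vehicle for the 5 tested neutrophil genes, from edgeR. Black points with bars are the fit of all 5 libraries with its standard error, and the markers beside them are the fits without 1 library each; without UMBO replicate 2 S100a9 and Retnlg fall below 0, while Csf3r stays between 0.70 and 1.07 in these fits.

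The likeness between gene patterns was measured as the root mean square difference of centered log2 CPM over the 5 libraries, for S100a9 and for Csf3r. The genes closest to S100a9 were Rhd (0.148), 2810408I11Rik (0.149) and Gm42895 (0.155). Rhd encodes a red cell blood group protein and was at 0.147, 0.297 and 0.0827 CPM with vehicle and at 0.129 and 1.24 CPM with UMBO. S100a8 was at 0.363 from S100a9, the rank 287 of the tested genes. The genes closest to Csf3r were Vwa1 (0.063), a matrix protein, Itgb5 (0.0637), an integrin subunit, and Gm8762 (0.0716). Itgb5 was at 42.4, 69.5 and 60.0 CPM with vehicle and at 91.0 and 102 CPM with UMBO. S100a9 lay at 0.96 from Csf3r, the rank 20482 of the tested genes.

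Other neutrophil genes were read from lists chosen by function. Of 10 further granule genes, 8 were tested, and 0 had an adjusted p under 0.05 in edgeR. An unadjusted p under 0.05 with a higher level in UMBO was found for 1, against 5.3% of all genes tested. Their log2 fold changes ran from 0.33 to 3.18 with a median of 1.03, which was 0.41 without UMBO replicate 2. Chil3, a chitinase-like protein of neutrophils and macrophages, was at 0.147, 1.78 and 0.201 CPM with vehicle and 3.39 and 9.36 CPM with UMBO, with no overlap. Pglyrp1, a peptidoglycan-binding granule protein, was at 1.82, 5.18 and 2.58 CPM with vehicle and 4.50 and 10.6 CPM with UMBO. Hp, the hemoglobin scavenger haptoglobin, was at 0.201, 0.697 and 0.307 CPM with vehicle and 0.316 and 2.09 CPM with UMBO. UMBO replicate 1 lay below vehicle replicate 2 for Pglyrp1 and Hp.

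Of 7 genes of neutrophil progenitors, 4 were tested and 0 passed at either threshold, with a median log2 fold change of 0.81, which was 0.04 without UMBO replicate 2. The myeloid transcription factor gene Cebpe was at 0.0267, 0.134 and 0.0236 CPM with vehicle and 0.117 and 0.29 CPM with UMBO. The log2 fold change was 1.42 ± 1.18 for Gfi1, another factor of granulocyte development, and 0.18 ± 0.343 for Prtn3, which encodes a granule protease. Ctsg, the cathepsin G gene, had 0 counts in every vehicle library and 1 and 7 counts with UMBO. Ms4a3 had 0 counts in the vehicle libraries and in UMBO replicate 1, and 4 in UMBO replicate 2. Of 15 further genes of mature neutrophils, 9 were tested, and 0 had an adjusted p under 0.05. Of these 9, 4 had an unadjusted p under 0.05 with a higher level in UMBO, against 5.3% of all genes tested. Slfn4, an interferon-responsive myeloid gene, was at 0.655, 2.34 and 0.591 CPM with vehicle, 2.15 CPM in UMBO replicate 1 but 21.6 CPM in UMBO replicate 2. Clec4e, a lectin receptor of neutrophils and monocytes, was at 0.0702 CPM in UMBO replicate 1 and at 2.72 CPM in UMBO replicate 2, against 0.0669, 0.178 and 0.0591 CPM with vehicle. Padi4, whose enzyme acts in the release of neutrophil extracellular traps, had no overlap, at 0.134, 0.089 and 0.106 CPM with vehicle and 0.222 and 0.366 CPM with UMBO. In edgeR it had 1.40 ± 0.456 on the log2 scale and an adjusted p of 0.497. Mrgpra2a and Mrgpra2b had 0 counts in all 5 libraries. The median log2 fold change of the mature list was 1.40, and 0.02 without UMBO replicate 2.

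The genes that draw and hold neutrophils were read in the same way. Of 9 recruitment ligands, 4 were tested, and 0 had an adjusted p under 0.05. For 1 of them the unadjusted p was under 0.05 with a higher level in UMBO, against 5.3% of all genes tested. The median log2 fold change was 1.46. Without UMBO replicate 2 that median was 0.23. Cxcl1, a ligand of Cxcr2, was at 0.0535, 0.237 and 0.13 CPM with vehicle, 0.351 CPM in UMBO replicate 1 but 2.99 CPM in UMBO replicate 2, with no overlap. The edgeR estimate was 3.57 ± 0.995 on the log2 scale, at an adjusted p of 0.497. Cxcl5, a further ligand of Cxcr2, was at 0.655, 1.14 and 0.815 CPM with vehicle and 1.14 and 2.64 CPM with UMBO. Il1b, the inflammatory cytokine gene, was at 0.548, 2.27 and 0.579 CPM with vehicle and 1.18 and 6.75 CPM with UMBO. Il17a had 1 count in all, in UMBO replicate 2, and Csf3, the ligand of Csf3r, had 1 to 3 counts per library (named after its values were seen).

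Of 7 adhesion genes, 6 were tested, and 0 had an adjusted p under 0.05. For 3 of them the unadjusted p was under 0.05 with a higher level in UMBO, against 5.3% of all genes tested. The median log2 fold change was 1.40. Without UMBO replicate 2 it was 0.51. Selp, the P-selectin gene of activated endothelium and platelets, was at 0.147, 0.178 and 0.26 CPM with vehicle and 0.374 and 1.91 CPM with UMBO, with no overlap. Itgam, the CD11b chain found on neutrophils, monocytes and microglia, was at 7.86, 16.5 and 9.47 CPM with vehicle and 20.8 and 46.3 CPM with UMBO, again with no overlap. Its partner Itgb2 overlapped, since UMBO replicate 1 (23.0 CPM) lay below vehicle replicate 2 (24.5 CPM). The 4 alarmin receptor genes were all tested, and 0 had an adjusted p under 0.05. For 1 of them the unadjusted p was under 0.05 with a higher level in UMBO, against 5.3% of all genes tested. Cd14, the endotoxin co-receptor, was at 2.10, 4.61 and 2.43 CPM with vehicle and 6.18 and 24.4 CPM with UMBO. Tlr4, which binds calprotectin, was at 2.34, 3.10 and 2.69 CPM with vehicle and 3.36 and 5.07 CPM with UMBO. Ly96, the binding partner of Tlr4, had 0.83 ± 0.421 on the log2 scale.

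Markers of other cells that could share these transcripts, or that come with blood, were summed in each library. The 8 monocyte and macrophage markers summed to 27.5 to 95.1 CPM with vehicle, 85.4 CPM in UMBO replicate 1 but 390 CPM in UMBO replicate 2. Of these 8, 7 had their highest CPM in UMBO replicate 2, against 37.6% of genes with a count. Cd163, named after its values were seen, was at 1.97, 2.30 and 3.08 CPM with vehicle and 3.17 and 1.82 CPM with UMBO. The 6 proliferation genes, which are high in tumor cells, summed to 23.4 to 80.0 CPM with vehicle and to 82.5 and 363 CPM with UMBO. Lyz2, a lysozyme gene of macrophages and neutrophils alike, was at 13.7, 65.0 and 28.9 CPM with vehicle and at 60.3 and 294 CPM with UMBO. It made up the largest part of the monocyte and macrophage sum in each library. Both sums were therefore highest in the library where the alarmins were highest, and the part of these markers in the result was not tested. The 8 microglia markers summed to 277 to 395 CPM with vehicle and to 529 and 625 CPM with UMBO, the same order of groups as Csf3r, and their part was not tested either. For 6 of these 8 markers all UMBO values exceeded the vehicle values, against 11.5% of the genes tested, among them Fcrls, at 15.9, 16.9 and 17.4 CPM with vehicle and 51.2 and 50.5 CPM with UMBO. The exceptions, P2ry12 and Sall1, named after their values were seen, were lowest in UMBO replicate 2, at 20.8 and 22.9 CPM. The 7 red blood cell markers summed to 72.0 to 166 CPM with vehicle and to 182 and 217 CPM with UMBO, and the 5 platelet markers to 3.20 to 4.15 CPM and to 4.45 and 8.15 CPM. The 5 mast cell markers summed to 0.254 to 0.475 CPM with vehicle and to 1.28 and 2.20 CPM with UMBO. The 5 eosinophil markers summed to 1.04 to 2.76 CPM with vehicle and to 3.12 and 3.74 CPM with UMBO. The 5 neuron markers summed to 4352 to 6784 CPM with vehicle, to 4392 CPM in UMBO replicate 1 and to 2097 CPM in UMBO replicate 2. Their part in the members' values was not tested. None of these markers was at 0 in all libraries, and 0 of the genes of any list had an adjusted p under 0.05 in edgeR.

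**Figure D4:**
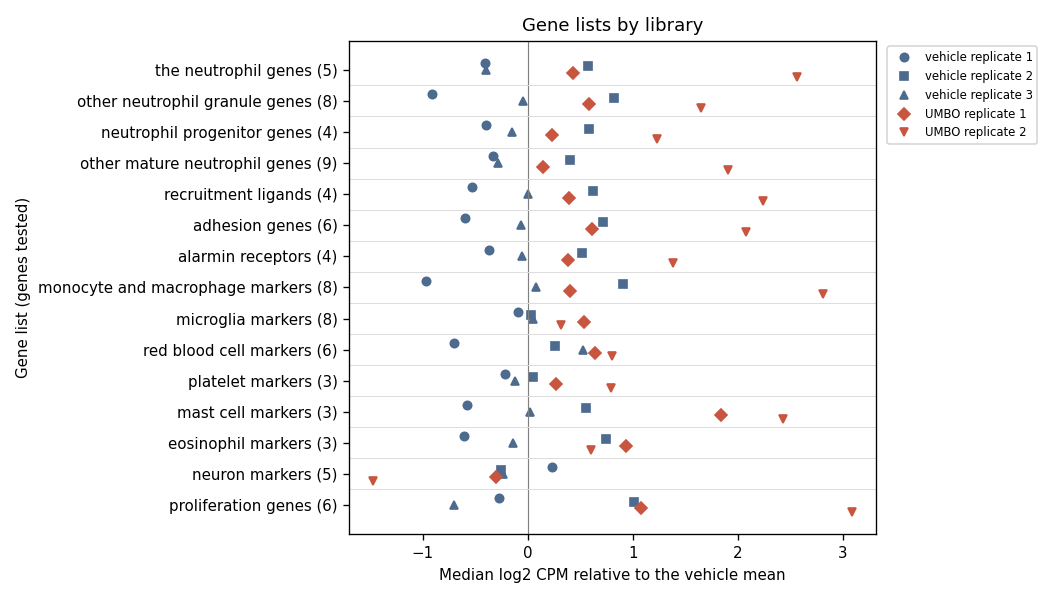
Median log2 CPM relative to the vehicle mean (x axis) of the tested genes of each list (y axis, number tested in brackets), 1 marker per library. UMBO replicate 2 lies farthest right for every list but the microglia, eosinophil and neuron markers. Its median is 2.56 for the neutrophil genes, 2.81 for the monocyte and macrophage markers and 3.09 for the proliferation genes. UMBO replicate 1 lies left of vehicle replicate 2 for the neutrophil genes (0.43 against 0.58). The same holds for the other neutrophil lists and for the recruitment, adhesion, alarmin receptor, monocyte and macrophage, and neuron lists.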

How the data were processed

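RNA of the right hemisphere was analysed in 3 vehicle and 2 UMBO libraries, grouped and numbered as in the labels. Per the submitters' processing notes, reads were mapped with STAR 2.7.2a on GRCm38, and the tables that the authors deposited hold whole-number counts for each gene without normalization. The annotation release and the use of strand in counting are not given in the sources used here. Symbols, positions and exonic lengths are from GENCODE M21, which is on the same build. None of the 9 members shares an exon position with another gene. Of their transcript windows of 50 bases, 6.68% for Cxcr2, 10.7% for Csf3r and 0.448% for Ly6g also occur in other genes, and 0.0% for the other members.

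After TMM scaling, filterByExpr (minimum count 10) left 23592 genes. These entered edgeR's quasi-likelihood test (version 4.0.16 under R 4.3.3), and p-values were adjusted by Benjamini-Hochberg over all of them, with a threshold of 0.05. The study's own tool, DESeq2, was an alternative. Log2 CPM used a prior count of 2. Exact intervals at 95% cover counting error only. Ratios are to the pooled vehicle counts. The edgeR script was run on simulated data as a check of the code, and no statement on power in these libraries is drawn from it. Alternatives were DESeq2 size factors, library size only, no filter, the Wald test of DESeq2 1.42.0, the replicate number as a block and each library left out.

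The members and all gene lists were chosen with earlier results of these data known. All 9 members are named, as are the 3 genes nearest in pattern to S100a9 and to Csf3r. Genes named from another list are among its 3 tested genes of smallest p or were at 0 in a whole group, and others are marked as chosen after their values were seen. No label ties a library to a mouse, so p-values measure the spread between these libraries.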

Additional observations from a re-analysis of the deposited data

How the results depend on the processing

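No member passed an adjusted p of 0.05 in edgeR with DESeq2 size factors, with library size only or with no filter, nor in the DESeq2 Wald test, and the median log2 fold change of the tested members moved by less than the spread between libraries. With the replicate block 1 member passed, Csf3r (log2 fold change 0.96), while 6.05% of all genes tested were called higher. Over the fits that each left out 1 library the number of members passing ranged from 0 to 4, the latter without UMBO replicate 1, where Mmp8 and Cxcr2 passed the filter on low counts only through UMBO replicate 2. The log2 fold change ranged from -0.40 (without UMBO replicate 2) to 2.70 for S100a9 and from -0.14 (without UMBO replicate 2) to 3.25 (without vehicle replicate 2) for Retnlg. Among all genes 0 passed in the reported fit, where 1738 had an unadjusted p under 0.05, against 40 in the DESeq2 Wald test, 2337 with the replicate block and 0 to 4543 with 1 library left out; the cause was not tested. Same-numbered libraries had correlated deviations (0.453 and 0.76), but with 2 UMBO libraries these mirror each other, so the numbers establish no pairs. With library size only, the median over all genes shifted from 0.01 to 0.13 on the log2 scale. Counts under 10 in each vehicle library limit Ly6g, Mmp8, Cxcr2 and Camp.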
